A study of Arabidopsis thaliana with 18 samples.

Results

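The genes described here are nuclear genes for the machinery of photosynthetic electron transport, 39 of the 32833 genes in the count table. They encode subunits of the photosystem I core (12 genes), the photosystem I antenna proteins LHCA1 to LHCA6 (6 genes), photosystem II (12 genes), the electron carriers between and after the photosystems (6 genes) and the chloroplast ATP synthase (3 genes). Members were taken by locus number for what they encode. The list was chosen with earlier results of these data known, and it does not hold every nuclear gene of this machinery. Positions given with a locus number are those of the gene in build TAIR10.1 (RefSeq annotation), and all members are protein-coding. All 39 passed the filter on low counts in both experiments.

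RNA-seq was done on 18 libraries of Arabidopsis thaliana, ecotype Col-0, with 3 libraries in each of 6 groups. In the first experiment, discs cut from mature rosette leaves of plants 4 weeks old lay overnight in MS medium with 1% fructose, 1% glucose or 1% mannitol, a sugar alcohol that served as the osmotic control. In the second, untreated leaves of plants 4 weeks old were sampled from the lines ERDL4-overexpressor 2 and ERDL4-overexpressor 1 and from wild type. ERDL4 (AT1G19450) encodes a sugar transporter located in the tonoplast, and the study asked how it bears on fructose signalling and growth. Growth was in soil under days of 10 h light and nights of 14 h at 21 °C. The promoter of the transgene and the number of plants behind a library are unstated in the labels. Libraries are titled as biological replicates with no word on separate plants, so p-values measure the spread between these libraries, which may be technical. Discs and leaves were handled differently and were analysed apart.

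In the thylakoid membrane, photosystem II takes electrons from water, the cytochrome b6f complex and plastocyanin pass them on, and photosystem I hands them through ferredoxin and ferredoxin-NADP reductase (FNR) to NADP. The proton gradient built on the way drives the ATP synthase. The reaction centre proteins are mostly encoded in the chloroplast genome, whereas antenna, oxygen-evolving and many small subunits are encoded in the nucleus and imported. Nuclear photosynthesis genes are known to be repressed in leaves fed with glucose or other metabolisable sugars, a response in which hexokinase has a known part.

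The libraries held 17318810 to 26157641 counts each. Together the 39 genes took 2.27%, 1.46% and 2.83% of all counts in the fructose libraries and 0.127%, 0.583% and 0.244% in the glucose libraries, against 7.18%, 7.05% and 6.05% in the mannitol libraries. In leaves they took 6.28%, 5.53% and 5.54% in overexpressor 2 and 7.45%, 6.23% and 6.31% in overexpressor 1, against 11.6%, 9.63% and 11.7% in wild type. Thus no sugar library reached a mannitol library and no overexpressor library reached a wild-type library. Because the members are such a large share of the RNA, levels are given as CPM, counts scaled to the effective library total by TMM, a scaling that does not let a few abundant genes set the level of all others. ERDL4 itself stood at 604, 578 and 568 CPM in overexpressor 2 and 350, 355 and 359 CPM in overexpressor 1, against 124, 111 and 152 CPM in wild type, so the 2 lines matched their labels. Replicates 2 and 3 of overexpressor 2 and of overexpressor 1 were closer to each other than other replicate pairs, with chi-square values of 1.7 and 2.07 per degree of freedom. The other pairs had 4.59 (mannitol 1 and 2) to 66.1, and all libraries were kept.

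The genes were lower in both sugars than in mannitol, and lower in glucose than in fructose. In fructose 34 of 39 members fell and 0 rose at an adjusted p under 0.05 (edgeR quasi-likelihood test, Benjamini-Hochberg adjustment over all 18784 genes tested), beside 29.5% of all genes called lower and 36.6% called higher. Their median log2 fold change was -1.66 (range -3.18 to -0.59), against 0.09 over all genes tested. In 37 members every fructose library lay below every mannitol library, as in 33.2% of all genes. In glucose all 39 fell, beside 35.5% of all genes called lower, with a median of -4.36 (range -5.61 to -1.63) against 0.03 over all genes, and in all 39 the libraries were separate, as in 37.3% of all genes. Fructose discs were higher than glucose discs in all 39 members, beside 24.7% of all genes called higher in that comparison, with a median of 2.73 (range 0.78 to 3.17) against 0.01. The 3 disc comparisons share libraries, so they are not independent of each other.

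**Figure D1:**
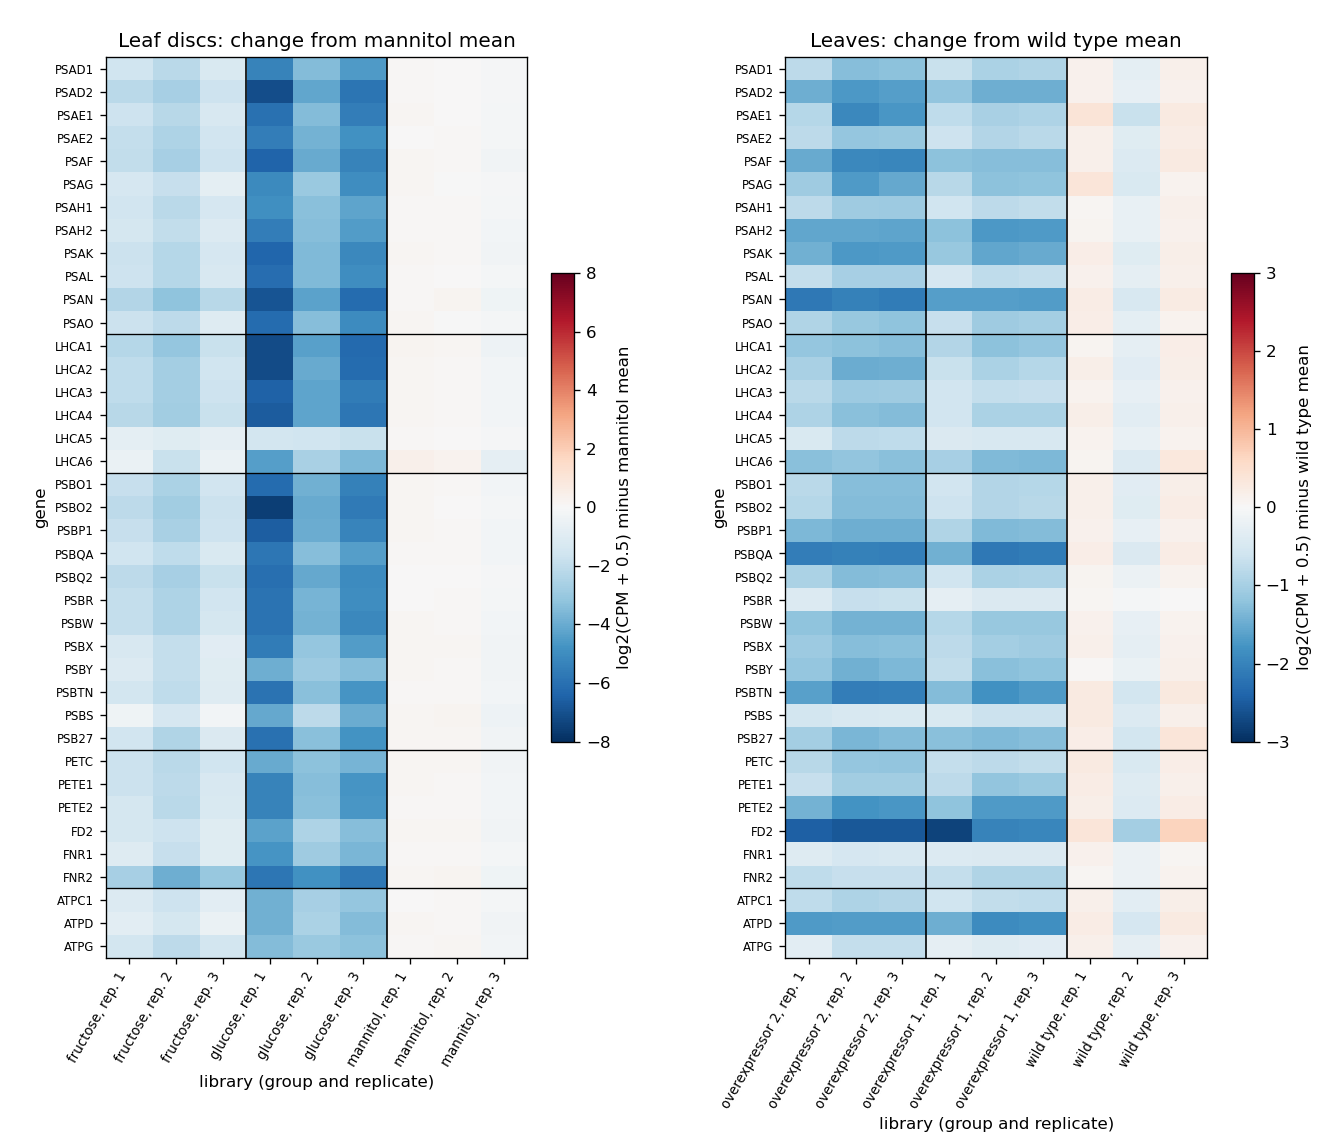
Level of each of the 39 genes (rows, grouped by complex with black lines) in each library (columns), as log2(CPM + 0.5) minus the mean of the mannitol libraries (left) or of the wild-type libraries (right). Blue is lower. Glucose replicate 1 is the darkest column and LHCA5 is the row that changes least in glucose, and in leaves FD2 is the darkest row.

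How far the genes fell differed between libraries of 1 group. The median member lay -1.69, -2.19 and -1.27 log2 units from the mannitol mean in fructose replicates 1, 2 and 3, and -5.77, -3.42 and -4.85 from it in the glucose replicates. Fructose replicate 2 was the lowest of its group in 39 of 39 members. Glucose replicate 1 was the lowest of its group in 38 members and glucose replicate 2 the highest in 38. The fructose calls depend on this spread: 15 of the 34 were made whichever library was left out, and the count was 15 without fructose replicate 2, 21 without fructose replicate 1 and 22 without mannitol replicate 1 or 2. Over all genes 5239 of 19101 were called lower without fructose replicate 2 and 5048 of 19045 without fructose replicate 1. Without mannitol replicate 1 it was 5075 of 19072, and without mannitol replicate 2 it was 5098 of 19060. Without glucose replicate 2 the median of fructose against glucose was 3.60 rather than 2.73. The glucose count was 39 whichever library was left out, beside 6255 to 6771 of all genes called lower. Without glucose replicate 2, though, the glucose median was -5.34 rather than -4.36, and 29 of the 39 glucose estimates were lower by more than 1.5-fold. No other left-out library moved a called value of a member that far. Statements on which member changed most or least rest on estimates from all libraries, and leaving out 1 library changed some of these orders.

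Leaves of both overexpressor lines carried less RNA of these genes than wild type. In overexpressor 2 all 39 members fell, beside 21.5% of all 18703 genes tested, with a median log2 fold change of -1.22 (range -2.67 to -0.46) against 0.02 over all genes. All 39 were separate from wild type, as in 26.2% of all genes. In overexpressor 1, 38 members fell, beside 22.3% of all genes, with a median of -0.96 (range -2.36 to -0.34) against 0.01. The same 38 were separate from wild type, as in 27.4% of all genes, and 18 fell at least 2-fold, beside 9.64% of all genes. The exception was ATPG, with a log2 fold change of -0.34 ± 0.16 (SE) and an edgeR adjusted p of 0.106; without wild-type replicate 2 its adjusted p was 0.02. Wild-type replicate 2 was the lowest wild-type library in 39 of 39 members and lay at -0.32 log2 units from the wild-type mean in the median member. Both lines were set against the same wild-type libraries.

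No member passed the threshold between the lines. Overexpressor 2 against overexpressor 1 gave 0 members past the threshold in edgeR, DESeq2 and limma-voom, beside 0.0535% of all genes called in either direction by edgeR (0.0214% lower and 0.0321% higher). Over all genes edgeR called 6 higher and 4 lower of 18703, limma-voom 3 higher and 4 lower of 18703, and DESeq2 413 higher and 311 lower of 14699. At an unadjusted p under 0.05 edgeR listed 4 members (LHCA2, PSAF, PSAN and PSBQ2, all lower in overexpressor 2) and 2738 of 18703 genes. The members' median was -0.25 (range -0.55 to 0.13), against -0.01 over all genes, and 10 of 39 were lower with no overlap between the groups, beside 11.3% of all genes. The 95% interval of the difference was -1.28 to 0.17 for PSAE1, the member with the lowest estimate, and -0.13 to 0.40 for FNR2, the member with the highest. Without wild-type replicate 2, which enters the shared estimate of the spread, PSAN was called lower with a log2 fold change of -0.42 and an edgeR adjusted p of 0.0404. ERDL4 itself did not pass between the lines, with a log2 fold change of 0.72 ± 0.13 (SE, edgeR adjusted p 0.0782).

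Markers of leaf cell types were measured beside these genes. The mesophyll genes RBCS1A, RCA and CA1 fell, 3 of 3 in each sugar and each line. Their summed level was 1390 to 2780 CPM in fructose and 203 to 636 CPM in glucose, against 6820 to 11300 CPM in mannitol. In leaves it was 12200 to 13200 CPM in overexpressor 2 and 13100 to 17000 CPM in overexpressor 1, against 25600 to 39100 CPM in wild type. The phloem companion cell markers fell in both sugars (4 of 4) and rose in the lines, 3 of 4 in overexpressor 2 and 4 of 4 in overexpressor 1, so they moved with the members in discs and against them in leaves. They summed to 206 to 283 CPM in fructose and 222 to 259 CPM in glucose, against 452 to 649 CPM in mannitol, and to 828 to 905 CPM in overexpressor 2 and 1000 to 1110 CPM in overexpressor 1, against 645 to 689 CPM in wild type. Of 5 guard cell markers 2 rose and 0 fell in fructose, 2 rose and 1 fell in glucose, 1 rose and 1 fell in overexpressor 2, and 2 rose and 1 fell in overexpressor 1. Over all genes, 36.6% were called higher in fructose and 7224 of 18784 in glucose. The guard cell sum was 126 to 155 CPM in fructose and 201 to 279 CPM in glucose, against 35.4 to 43.9 CPM in mannitol. The median guard cell marker, though, had a log2 fold change of -0.17 in fructose (highest 3.34) and 0.16 in glucose (highest 5.18). In leaves the guard cell sum was 48.3 to 50.4 CPM in overexpressor 2 and 58.9 to 64.5 CPM in overexpressor 1, against 43.6 to 51.1 CPM in wild type. Of 4 epidermal markers 2 fell in fructose, 4 in glucose, 3 in overexpressor 2 and 2 in overexpressor 1, where 1 rose. Their sum was 403 to 568 CPM in fructose and 137 to 288 CPM in glucose, against 659 to 913 CPM in mannitol, and 588 to 675 CPM in overexpressor 2 and 863 to 935 CPM in overexpressor 1, against 741 to 875 CPM in wild type. The flower markers AP3 and AG summed to at most 1.28 CPM in any library. The part of these cell types in the result was not tested, and in whole discs or leaves fewer green cells and less RNA of these genes per cell cannot be told apart.

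**Figure D2:**
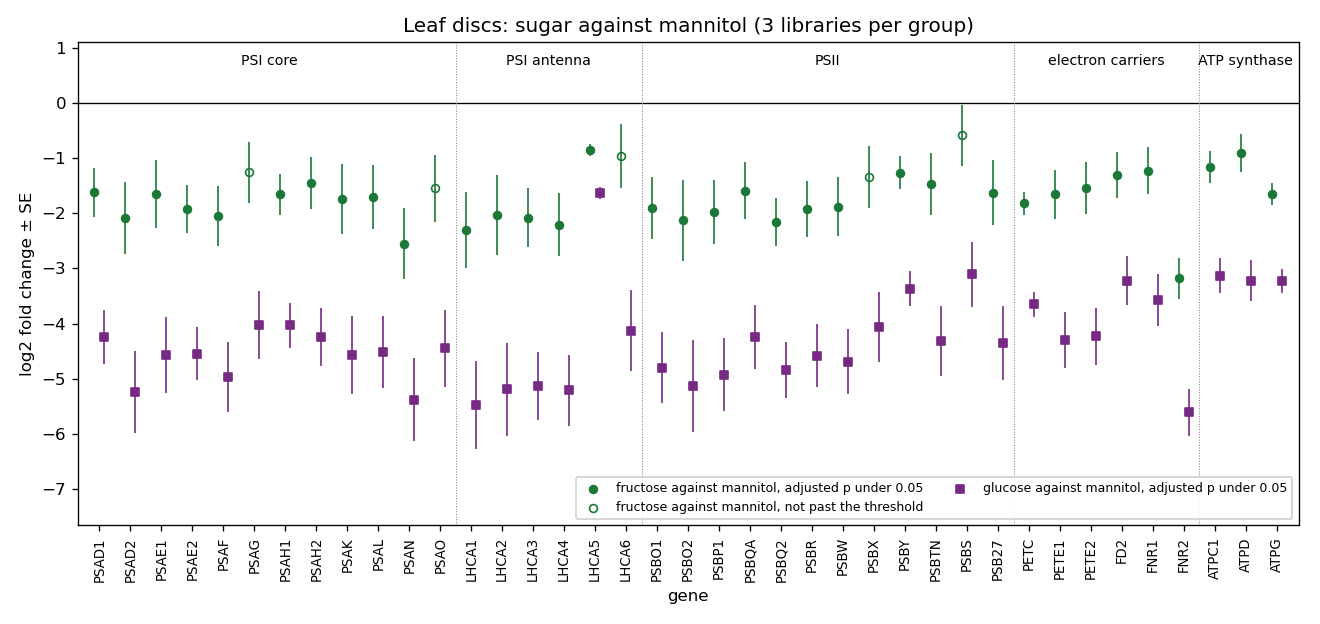
Log2 fold change ± SE of each gene in discs, fructose against mannitol (circles) and glucose against mannitol (squares), by complex. Open symbols did not pass the threshold: PSAG, PSAO, LHCA6, PSBX and PSBS in fructose. Every square lies below the circle of the same gene.

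The photosystem I core genes encode the subunits around the chloroplast-encoded reaction centre. In fructose 10 of 12 fell, in glucose 12 of 12, and in each overexpressor line 12 of 12. The counts of this and each later complex stand beside 29.5% of all genes called lower in fructose and 35.5% in glucose. In leaves the shares were 21.5% in overexpressor 2 and 22.3% in overexpressor 1. The median log2 fold changes were -1.68 in fructose and -4.54 in glucose, -1.48 in overexpressor 2 and -1.04 in overexpressor 1. PSAG and PSAO did not pass in fructose, with log2 fold changes of -1.26 ± 0.55 (SE, edgeR adjusted p 0.075) and -1.55 ± 0.61 (SE, edgeR adjusted p 0.0527); both were called when glucose replicate 1 or 2 was left out of the shared fit.

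PSAL forms the side of photosystem I where trimers form in cyanobacteria and where light-harvesting complex II docks in plants. Averaged over all 18 libraries, it had the highest level per kilobase of the core genes. In wild-type leaves PSAO was higher, with 5410 against 4940 CPM per kilobase. PSAL (AT4G12800, chr4:7521257-7522761, plus strand) stood at 1160, 767 and 1550 CPM in fructose discs and 53.5, 322 and 117 CPM in glucose discs, against 4040, 3880 and 3330 CPM in mannitol discs. No fructose library reached the lowest mannitol library, and the glucose libraries were lower again. In leaves PSAL had 3410, 2820 and 2790 CPM in overexpressor 2 and 3910, 3310 and 3410 CPM in overexpressor 1, against 6060, 4610 and 6230 CPM in wild type. All 6 overexpressor libraries lay below the lowest wild-type library. On the log2 scale PSAL changed by -1.70 ± 0.58 (SE, edgeR adjusted p 0.0296) in fructose, -4.52 ± 0.65 (SE, edgeR adjusted p 0.00026) in glucose, -0.91 ± 0.16 (SE, edgeR adjusted p 0.00172) in overexpressor 2 and -0.67 ± 0.16 (SE, edgeR adjusted p 0.00688) in overexpressor 1. Its fructose call was lost when mannitol replicate 1, 2 or 3 or fructose replicate 1 or 2 was left out (adjusted p 0.0554 to 0.111).

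PSAN, a lumenal subunit that helps plastocyanin to donate electrons to photosystem I, changed most of the core genes in glucose and in the lines. PSAN (AT5G64040, chr5:25628521-25629708, minus strand) stood at 236, 128 and 258 CPM in fructose discs and 9.32, 61.8 and 16.2 CPM in glucose discs, against 1300, 1380 and 962 CPM in mannitol discs. In leaves PSAN had 541, 582 and 561 CPM in overexpressor 2 and 754, 758 and 742 CPM in overexpressor 1, against 2800, 1710 and 2840 CPM in wild type. The groups do not overlap in either experiment. Fructose discs held 17% and glucose discs 2.4% of the mannitol level by the fitted fold change, and the lines held 22.9% (overexpressor 2) and 30.6% (overexpressor 1) of the wild-type level. The log2 fold changes were -2.55 ± 0.65 (SE, edgeR adjusted p 0.00843) in fructose, -5.38 ± 0.75 (SE, edgeR adjusted p 0.000217) in glucose, -2.13 ± 0.19 (SE, edgeR adjusted p 0.000109) in overexpressor 2 and -1.71 ± 0.18 (SE, edgeR adjusted p 0.000264) in overexpressor 1. Without glucose replicate 2 the glucose value of PSAN was -6.57. PSAN overlaps AT5G64030 on the opposite strand, as 11 of the 39 members overlap some gene there. On the same strand 2 members overlap another gene, PSAD2 with AT1G03140 and PSBP1 with AT1G06670, so the counts of both are uncertain. The libraries were directional but no label names the strand setting of the counting.

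PSAF, the lumenal subunit on which plastocyanin docks, and PSAD and PSAE, the stromal subunits on which ferredoxin docks, moved with PSAN in direction. PSAF fell by 1.82 on the log2 scale in overexpressor 2 and by 1.29 in overexpressor 1, and by 2.05 in fructose and 4.97 in glucose. PSAD2 (AT1G03130, chr1:753307-754262, minus strand) stood at 275, 196 and 396 CPM in fructose discs and 8.66, 68.3 and 21 CPM in glucose discs, against 1290, 1280 and 1130 CPM in mannitol discs. In leaves PSAD2 had 693, 580 and 608 CPM in overexpressor 2 and 842, 697 and 696 CPM in overexpressor 1, against 2090, 1610 and 2090 CPM in wild type. PSAD2 is the less abundant PSAD gene. PSAD1 (AT4G02770, chr4:1229031-1230164, minus strand) stood at 811, 532 and 1030 CPM in fructose discs and 59.5, 218 and 104 CPM in glucose discs, against 2560, 2450 and 2260 CPM in mannitol discs. In leaves PSAD1 had 2300, 1630 and 1680 CPM in overexpressor 2 and 2470, 2050 and 2120 CPM in overexpressor 1, against 4330, 3250 and 4400 CPM in wild type. Of both PSAD genes the libraries do not overlap between sugar and mannitol discs or between either line and wild type. PSAE1 (AT4G28750, chr4:14202758-14204061, minus strand) stood at 217, 147 and 285 CPM in fructose discs and 10.4, 61.2 and 14.3 CPM in glucose discs, against 744, 687 and 614 CPM in mannitol discs. In leaves PSAE1 had 560, 267 and 302 CPM in overexpressor 2 and 605, 516 and 534 CPM in overexpressor 1, against 1340, 640 and 1240 CPM in wild type. Wild-type replicate 2 was the lowest wild-type library and still lay above every overexpressor library. The log2 fold change of PSAE1 in overexpressor 1 was -0.96 ± 0.33 (SE, edgeR adjusted p 0.0382), and that call was lost without wild-type replicate 1 or 3 or overexpressor 1 replicate 2 or 3 (adjusted p 0.101 to 0.128).

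Of the antenna genes, LHCA1 to LHCA4 encode the belt of chlorophyll-binding proteins bound to photosystem I, while LHCA5 and LHCA6 encode minor proteins that link photosystem I to the chloroplast NDH complex. In fructose 5 of 6 fell (median log2 fold change -2.05), in glucose 6 of 6 (-5.16), in overexpressor 2 6 of 6 (-1.21) and in overexpressor 1 6 of 6 (-0.84). The antenna medians were the lowest of the 5 complexes in both sugars. In the lines the lowest median was that of the photosystem I core. These are descriptions of medians, and the difference between complexes was not tested.

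LHCA4 had the highest level per kilobase of the antenna genes. LHCA4 (AT3G47470, chr3:17493343-17495033, minus strand) stood at 2140, 1440 and 2850 CPM in fructose discs and 97.9, 528 and 178 CPM in glucose discs, against 10800, 10500 and 8490 CPM in mannitol discs. In leaves LHCA4 had 5850, 4610 and 4490 CPM in overexpressor 2 and 7370, 5710 and 5760 CPM in overexpressor 1, against 12400, 8930 and 12200 CPM in wild type. The mannitol libraries were the only disc libraries above 5000 CPM, and in leaves every wild-type library lay above every overexpressor library. The log2 fold change of LHCA4 was -2.21 ± 0.57 (SE, edgeR adjusted p 0.00853) in fructose, -5.21 ± 0.65 (SE, edgeR adjusted p 0.000105) in glucose, -1.17 ± 0.19 (SE, edgeR adjusted p 0.00109) in overexpressor 2 and -0.83 ± 0.18 (SE, edgeR adjusted p 0.00498) in overexpressor 1. LHCA1, its partner in a dimer of the belt, changed most of the antenna genes in glucose. LHCA1 (AT3G54890, chr3:20339504-20341176, minus strand) stood at 720, 412 and 1000 CPM in fructose discs and 23.8, 170 and 46 CPM in glucose discs, against 4080, 3850 and 2680 CPM in mannitol discs. In leaves LHCA1 had 4130, 3920 and 3850 CPM in overexpressor 2 and 5040, 3960 and 4120 CPM in overexpressor 1, against 9720, 7700 and 10600 CPM in wild type. For LHCA1 too, every mannitol library lay above the sugar libraries and every wild-type library above those of the lines. The log2 fold change of LHCA1 was -2.31 ± 0.69 (SE, edgeR adjusted p 0.0171) in fructose and -5.47 ± 0.80 (SE, edgeR adjusted p 0.000296) in glucose. Without glucose replicate 2 the glucose value was -6.66, and without fructose replicate 2 the adjusted p in fructose was 0.0737.

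LHCA5 changed least of the antenna genes in all 4 comparisons with mannitol or wild type. LHCA5 (AT1G45474, chr1:17179250-17180806, plus strand) stood at 53.8, 46.9 and 55.6 CPM in fructose discs and 33.6, 30.3 and 27.1 CPM in glucose discs, against 99.8, 94.1 and 87.5 CPM in mannitol discs. In leaves LHCA5 had 145, 116 and 118 CPM in overexpressor 2 and 149, 144 and 143 CPM in overexpressor 1, against 216, 172 and 215 CPM in wild type. The sugars did not overlap mannitol nor the lines wild type, and both sugar calls were made whichever library was left out. On the log2 scale it changed by -0.85 ± 0.11 (SE, edgeR adjusted p 5.67e-05) in fructose, -1.63 ± 0.11 (SE, edgeR adjusted p 4.33e-07) in glucose, -0.67 ± 0.13 (SE, edgeR adjusted p 0.00275) in overexpressor 2 and -0.47 ± 0.13 (SE, edgeR adjusted p 0.0145) in overexpressor 1. The overexpressor 1 call was lost without wild-type replicate 1 or 3 or overexpressor 1 replicate 2 or 3 (adjusted p 0.0538 to 0.0605). LHCA5 overlaps AT1G45545 on the opposite strand, and LHCA4 overlaps AT3G47460.

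LHCA6, the other minor antenna gene, was near the limit of detection in glucose. Glucose libraries held 1, 31 and 10 counts of it, fructose libraries 165, 59 and 201 and mannitol libraries 259, 243 and 146. In leaves LHCA6 had 80.8, 85.6 and 80.6 CPM in overexpressor 2 and 96.3, 77.5 and 76.2 CPM in overexpressor 1, against 206, 146 and 241 CPM in wild type. Fructose and mannitol libraries overlap, and the fructose difference of -0.96 ± 0.58 (SE, edgeR adjusted p 0.178) did not pass. The glucose difference was -4.13 ± 0.73 (SE, edgeR adjusted p 0.000859), and in leaves the log2 fold change was -1.26 ± 0.18 (SE, edgeR adjusted p 0.000609) in overexpressor 2 and -1.25 ± 0.18 (SE, edgeR adjusted p 0.000589) in overexpressor 1.

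**Figure D3:**
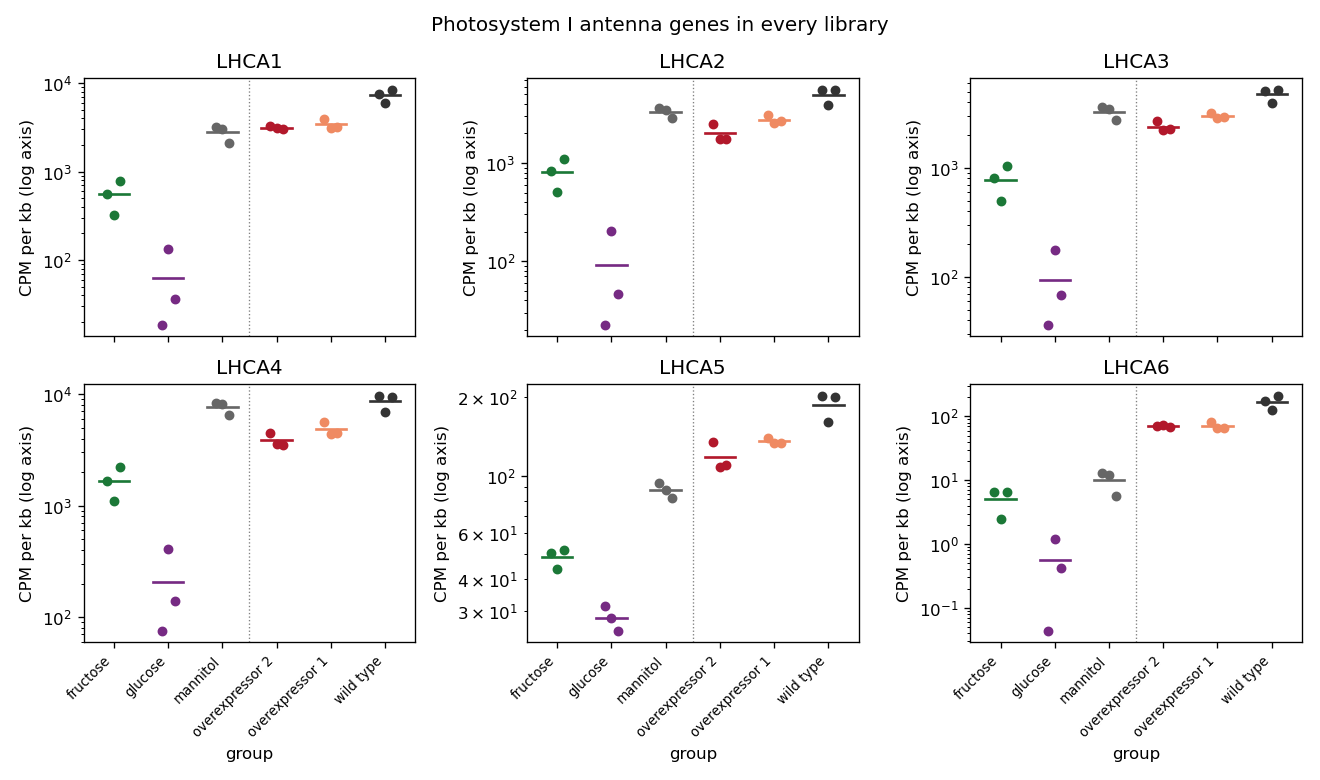
Level of the 6 antenna genes in every library, as CPM per kilobase of exon on a log axis, with a bar at the group mean and a dotted line between discs and leaves. LHCA1 to LHCA4 and LHCA6 fall steeply in glucose, whereas the LHCA5 points of all groups stay within a narrower band.

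The 250 bases upstream of the annotated starts of all 39 members were read from the TAIR10.1 genome and searched on both strands for 5 short motifs. These were the G-box CACGTG, bound by bZIP and bHLH factors, the I-box GATAAG, known from light-regulated genes, TATCCA, known from amylase promoters of sugar-starved rice cells, the CCAAT-type motif CCAATC and the evening element AAAATATCT of clock-regulated genes. TATCCA was found upstream of 13 members (33.3%), against 13.6% of 27443 protein-coding genes. The I-box was found in 25.6% against 12.3%, CCAATC in 20.5% against 10.2%, the G-box in 17.9% against 6.49% and the evening element in 5.13% against 2.36%. At least 1 motif was present in 25 members and none in 14. TATCCA was in the windows of 3 of 6 antenna genes, 4 of 12 core genes, 4 of 12 photosystem II genes and 2 of 3 ATP synthase genes, and in 0 of 6 carrier genes. Some windows reach into another annotated gene. Among those with TATCCA these are the windows of PSAD2, PSAE1, PSAE2, LHCA1, PSBO1, PSBQA, ATPD and ATPG. The windows of PSAK, LHCA2, LHCA3, PSBR and PSBY do not. A match describes letters in a window and not a bound site.

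Windows are printed for members that show the range of responses: the abundant antenna genes LHCA3 and LHCA4, the core gene PSAK, LHCA5 with the smallest glucose estimate and FNR2 with the largest from all libraries. Each runs 5′ to 3′ on the strand of the gene up to the base before its annotated start, and capitals mark motif matches on either strand. They lie at chr1:22699465-22699714 on the plus strand (LHCA3), chr3:17495034-17495283 on the minus strand (LHCA4), chr1:10721933-10722182 on the plus strand (PSAK), chr1:17179000-17179249 on the plus strand (LHCA5) and chr1:6942375-6942624 on the plus strand (FNR2), build TAIR10.1 (RefSeq annotation). No other annotated gene lies in these windows.
LHCA3: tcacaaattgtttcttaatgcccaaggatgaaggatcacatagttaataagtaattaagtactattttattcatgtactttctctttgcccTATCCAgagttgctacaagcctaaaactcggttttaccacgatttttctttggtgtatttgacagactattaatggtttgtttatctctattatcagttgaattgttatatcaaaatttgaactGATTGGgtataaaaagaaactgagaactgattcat
LHCA4: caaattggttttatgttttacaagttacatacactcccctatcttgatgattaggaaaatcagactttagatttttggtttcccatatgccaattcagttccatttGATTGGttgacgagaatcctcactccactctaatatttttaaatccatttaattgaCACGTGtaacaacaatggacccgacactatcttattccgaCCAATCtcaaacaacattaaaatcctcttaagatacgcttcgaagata
PSAK: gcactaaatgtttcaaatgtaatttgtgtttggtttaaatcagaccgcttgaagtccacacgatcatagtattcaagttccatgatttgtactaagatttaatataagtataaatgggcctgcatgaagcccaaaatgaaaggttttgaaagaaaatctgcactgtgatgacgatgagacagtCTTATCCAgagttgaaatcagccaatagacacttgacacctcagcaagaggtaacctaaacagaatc
LHCA5: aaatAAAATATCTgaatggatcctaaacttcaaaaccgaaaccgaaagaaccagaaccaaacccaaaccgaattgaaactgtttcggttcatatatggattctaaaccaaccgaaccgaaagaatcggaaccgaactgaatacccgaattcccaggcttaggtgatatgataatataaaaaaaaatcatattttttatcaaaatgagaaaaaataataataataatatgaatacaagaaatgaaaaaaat
FNR2: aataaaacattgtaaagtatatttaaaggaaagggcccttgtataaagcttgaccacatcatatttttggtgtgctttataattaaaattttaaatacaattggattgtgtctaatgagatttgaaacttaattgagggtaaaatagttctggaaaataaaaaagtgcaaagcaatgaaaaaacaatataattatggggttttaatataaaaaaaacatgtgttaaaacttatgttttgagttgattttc

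LHCA3 carries TATCCA 159 bases and CCAATC (as its reverse complement) 35 bases upstream of the start, counted to the first base of the match. LHCA4 carries the G-box 88 bases upstream between 2 CCAATC matches at 144 and 48. In PSAK the I-box and TATCCA overlap, on opposite strands, at 67 and 65 bases, the only such overlap among the members. The LHCA5 window holds the evening element alone, at 246 bases. The FNR2 window holds none of the 5 motifs.

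Photosystem II genes of the nucleus encode the oxygen-evolving proteins PSBO, PSBP and PSBQ on the lumenal side, a set of small membrane subunits and the photoprotective protein PSBS. In fructose 10 of 12 fell (median log2 fold change -1.75), in glucose 12 of 12 (-4.47), in overexpressor 2 12 of 12 (-1.25) and in overexpressor 1 12 of 12 (-1). PSBX, a small membrane subunit, and PSBS did not pass in fructose, with -1.34 ± 0.56 (SE, edgeR adjusted p 0.0646) for PSBX. PSBX was called when glucose replicate 1 or 2 was left out.

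PSBR, a small subunit needed for stable binding of the oxygen-evolving proteins, had the highest level per kilobase of the photosystem II genes and had the smallest mean change of them over the 2 lines. PSBR (AT1G79040, chr1:29735952-29737009, plus strand) stood at 1240, 835 and 1600 CPM in fructose discs and 77.4, 358 and 150 CPM in glucose discs, against 4830, 4980 and 4180 CPM in mannitol discs. In leaves PSBR had 5140, 4200 and 4290 CPM in overexpressor 2 and 5650, 4990 and 5010 CPM in overexpressor 1, against 7030, 6540 and 6820 CPM in wild type. Sugar libraries lay far below the mannitol libraries, whereas the lines were separate from wild type by a smaller margin. PSBR had log2 fold changes of -1.93 ± 0.51 (SE, edgeR adjusted p 0.00917) in fructose, -4.58 ± 0.57 (SE, edgeR adjusted p 9.54e-05) in glucose, -0.58 ± 0.13 (SE, edgeR adjusted p 0.0062) in overexpressor 2 and -0.38 ± 0.13 (SE, edgeR adjusted p 0.0382) in overexpressor 1. The overexpressor 1 call was lost without wild-type replicate 1 or 3 or replicate 2 or 3 of either line (adjusted p 0.0575 to 0.135). PSBR overlaps AT1G79050 on the opposite strand.

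PSBS, the sensor of nonphotochemical quenching, had the smallest fructose estimate of all members. PSBS (AT1G44575, chr1:16870221-16873427, plus strand) stood at 220, 111 and 234 CPM in fructose discs and 15.7, 65.1 and 17.4 CPM in glucose discs, against 315, 321 and 213 CPM in mannitol discs. The fructose libraries straddle the lowest mannitol library, and the difference of -0.59 ± 0.55 (SE, edgeR adjusted p 0.371) did not pass; without fructose replicate 2 the log2 fold change was -0.32. In glucose PSBS fell by 3.11 on the log2 scale. In leaves PSBS had 1370, 1430 and 1470 CPM in overexpressor 2 and 1460, 1290 and 1290 CPM in overexpressor 1, against 2410, 1500 and 2220 CPM in wild type. Wild-type replicate 2 lay just above the highest overexpressor library, and PSBS was among the members that changed least in leaves, with -0.52 ± 0.17 (SE, edgeR adjusted p 0.0315) in overexpressor 2 and -0.60 ± 0.17 (SE, edgeR adjusted p 0.0162) in overexpressor 1. Both leaf calls depended on single libraries: the first was lost without wild-type replicate 1 or 3 or any overexpressor 2 library (adjusted p 0.0736 to 0.152), the second without wild-type replicate 1 or 3 or overexpressor 1 replicate 2 or 3 (adjusted p 0.0627 to 0.0814).

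PSBO2, the minor gene of the manganese-stabilising protein PSBO, changed most of the photosystem II genes in glucose. PSBO2 (AT3G50820, chr3:18890874-18892508, minus strand) stood at 325, 202 and 418 CPM in fructose discs and 6.97, 84.4 and 27.1 CPM in glucose discs, against 1500, 1420 and 1220 CPM in mannitol discs. In leaves PSBO2 had 1250, 915 and 916 CPM in overexpressor 2 and 1460, 1220 and 1260 CPM in overexpressor 1, against 2520, 1750 and 2620 CPM in wild type. All groups compared with mannitol or wild type were separate. The log2 fold change was -5.13 ± 0.84 (SE, edgeR adjusted p 0.000605) in glucose and -2.13 ± 0.73 (SE, edgeR adjusted p 0.0312) in fructose, and the fructose call was lost when any mannitol or fructose library was left out (adjusted p 0.0584 to 0.12). PSBO1 (AT5G66570, chr5:26568572-26570461, plus strand) stood at 1730, 1080 and 2220 CPM in fructose discs and 87.4, 446 and 148 CPM in glucose discs, against 6850, 6710 and 5390 CPM in mannitol discs. In leaves PSBO1 had 4170, 3040 and 3050 CPM in overexpressor 2 and 4900, 4000 and 4080 CPM in overexpressor 1, against 8150, 5800 and 8350 CPM in wild type. PSBO1, the major gene, had -1.91 ± 0.56 (SE, edgeR adjusted p 0.0157) in fructose and -4.80 ± 0.64 (SE, edgeR adjusted p 0.000156) in glucose; without fructose replicate 2 the fructose adjusted p was 0.0665.

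PSBQA and PSBQ2 encode the PSBQ protein, and PSBQA changed most of the photosystem II genes in the lines. PSBQA (AT4G21280, chr4:11334352-11335815, plus strand) stood at 311, 230 and 415 CPM in fructose discs and 17.1, 90.9 and 43.8 CPM in glucose discs, against 1040, 1010 and 828 CPM in mannitol discs. In leaves PSBQA had 471, 487 and 482 CPM in overexpressor 2 and 736, 450 and 461 CPM in overexpressor 1, against 2290, 1480 and 2310 CPM in wild type. Wild-type libraries held at least 1480 CPM and no overexpressor library more than 736 CPM. PSBQA stood at 23.7% of the wild-type level in overexpressor 2 and 27.1% in overexpressor 1, with log2 fold changes of -2.08 ± 0.23 (SE, edgeR adjusted p 0.000239) and, in overexpressor 1, -1.88 ± 0.23 (SE, edgeR adjusted p 0.000364). PSBQ2 (AT4G05180, chr4:2671523-2673243, minus strand) stood at 1060, 717 and 1310 CPM in fructose discs and 70.4, 271 and 141 CPM in glucose discs, against 4760, 4660 and 4360 CPM in mannitol discs. In leaves PSBQ2 had 1720, 1350 and 1360 CPM in overexpressor 2 and 2200, 1710 and 1750 CPM in overexpressor 1, against 3520, 2920 and 3540 CPM in wild type. PSBQ2, the more abundant gene, had -1.17 ± 0.16 (SE, edgeR adjusted p 0.000559) in overexpressor 2 and -0.82 ± 0.16 (SE, edgeR adjusted p 0.0026) in overexpressor 1. In discs the order was the other way: PSBQA had -1.59 ± 0.52 (SE, edgeR adjusted p 0.0243) in fructose and PSBQ2 had -2.16 ± 0.44 (SE, edgeR adjusted p 0.00246). The fructose call of PSBQA was lost without mannitol replicate 1 or 2 or fructose replicate 1 or 2 (adjusted p 0.0572 to 0.0956).

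**Figure D4:**
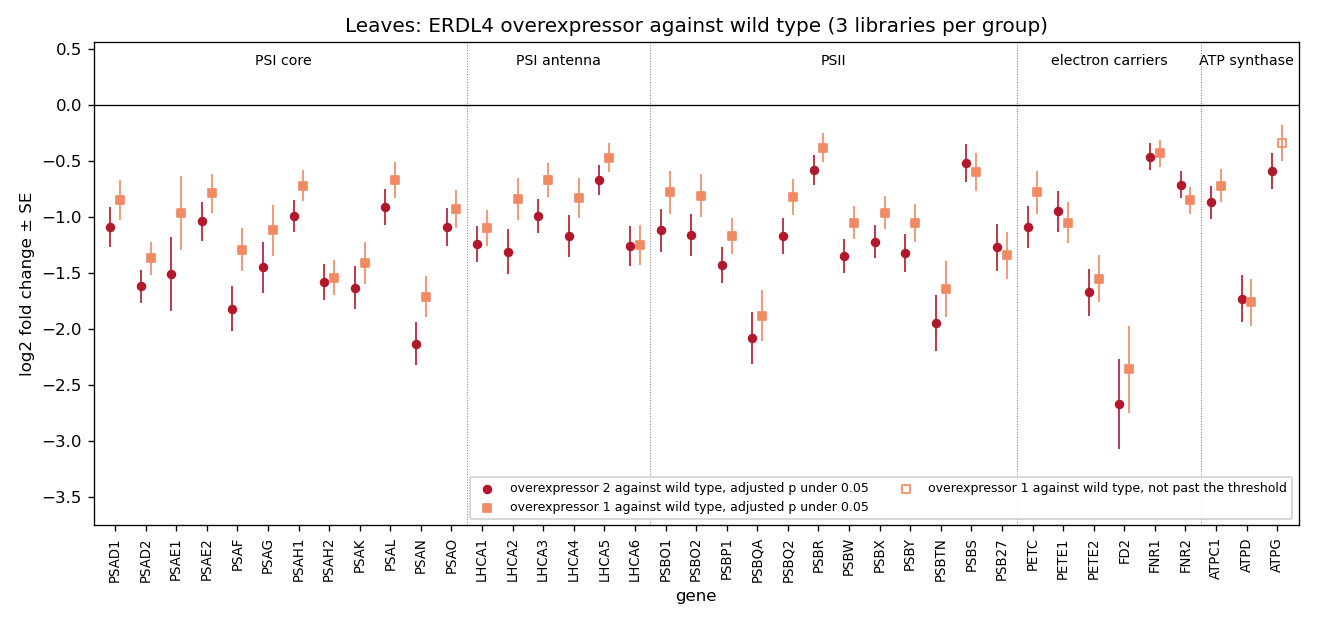
Log2 fold change ± SE of each gene in leaves, overexpressor 2 against wild type (circles) and overexpressor 1 against wild type (squares), by complex. The open square is ATPG, which did not pass in overexpressor 1. FD2 lies lowest for both lines.

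The electron carriers are PETC, the Rieske iron-sulfur protein of cytochrome b6f, the plastocyanins PETE1 and PETE2, the leaf ferredoxin FD2 and the leaf enzymes FNR1 and FNR2. All 6 fell in fructose (median log2 fold change -1.60), glucose (-3.94), overexpressor 2 (-1.02) and overexpressor 1 (-0.95). PETC had log2 fold changes of -1.82 ± 0.21 (SE, edgeR adjusted p 4.61e-05) in fructose and -3.65 ± 0.23 (SE, edgeR adjusted p 4.27e-07) in glucose, and of -1.09 ± 0.19 (SE, edgeR adjusted p 0.00172) in overexpressor 2 and -0.78 ± 0.19 (SE, edgeR adjusted p 0.00818) in overexpressor 1.

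PETE2, the main plastocyanin gene, had the highest level per kilobase of the carriers averaged over all 18 libraries. In glucose discs FD2 was higher, with 110 against 75 CPM per kilobase. PETE2 (AT1G20340, chr1:7042046-7043392, minus strand) stood at 713, 424 and 800 CPM in fructose discs and 46.4, 182 and 74.8 CPM in glucose discs, against 2050, 2010 and 1630 CPM in mannitol discs. In leaves PETE2 had 1620, 1260 and 1290 CPM in overexpressor 2 and 1870, 1330 and 1340 CPM in overexpressor 1, against 4930, 3250 and 5090 CPM in wild type. No sugar disc reached a mannitol disc, and no overexpressor leaf reached a wild-type leaf. PETE2 had log2 fold changes of -1.55 ± 0.47 (SE, edgeR adjusted p 0.0174) in fructose, -4.23 ± 0.52 (SE, edgeR adjusted p 9.46e-05) in glucose, -1.67 ± 0.21 (SE, edgeR adjusted p 0.00043) in overexpressor 2 and -1.55 ± 0.21 (SE, edgeR adjusted p 0.000539) in overexpressor 1. Without fructose replicate 2 the fructose adjusted p was 0.0682.

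FD2 was the member with the largest change in both lines. FD2 (AT1G60950, chr1:22444307-22445291, plus strand) stood at 383, 321 and 515 CPM in fructose discs and 50.9, 181 and 94.1 CPM in glucose discs, against 1110, 1110 and 810 CPM in mannitol discs. In leaves FD2 had 292, 277 and 278 CPM in overexpressor 2 and 233, 402 and 416 CPM in overexpressor 1, against 2060, 794 and 2550 CPM in wild type. Wild-type replicate 2 held less than any other wild-type library by a wide margin and still lay above every overexpressor library. FD2 stood at 15.7% of the wild-type level in overexpressor 2 and 19.5% in overexpressor 1, with log2 fold changes of -2.67 ± 0.40 (SE, edgeR adjusted p 0.00109) and, in overexpressor 1, -2.36 ± 0.39 (SE, edgeR adjusted p 0.0016). In discs it was the carrier that changed least in glucose, with -3.22 ± 0.44 (SE, edgeR adjusted p 0.00018), and it had -1.31 ± 0.41 (SE, edgeR adjusted p 0.0207) in fructose. The fructose call was lost without mannitol replicate 1 or 2 or fructose replicate 1 or 2 (adjusted p 0.0551 to 0.08).

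FNR2 showed the opposite order, with the largest estimate of all members in both sugars and a modest one in the lines. FNR2 (AT1G20020, chr1:6942625-6945091, plus strand) stood at 22.6, 9.17 and 17.2 CPM in fructose discs and 2.2, 4.58 and 2.27 CPM in glucose discs, against 162, 168 and 115 CPM in mannitol discs. In leaves FNR2 had 672, 713 and 711 CPM in overexpressor 2 and 694, 612 and 608 CPM in overexpressor 1, against 1200, 1020 and 1220 CPM in wild type. Fructose discs held 11% and glucose discs 2.05% of the mannitol level. FNR2 had log2 fold changes of -3.18 ± 0.37 (SE, edgeR adjusted p 8.37e-05) in fructose, -5.61 ± 0.43 (SE, edgeR adjusted p 4.34e-06) in glucose, -0.71 ± 0.12 (SE, edgeR adjusted p 0.00137) in overexpressor 2 and -0.85 ± 0.12 (SE, edgeR adjusted p 0.000595) in overexpressor 1. Its fructose estimate was the largest whichever library was left out, but without glucose replicate 2 its glucose value of -6.05 was passed by LHCA1 (-6.66), LHCA2 (-6.58), PSAN (-6.57), PSAD2 (-6.37), PSBO2 (-6.34) and LHCA4 (-6.17). FNR1 encodes the other leaf enzyme, on which FNR2 relies for binding to the thylakoid membrane. FNR1 (AT5G66190, chr5:26450964-26453199, minus strand) stood at 192, 112 and 204 CPM in fructose discs and 14.3, 55.2 and 31.1 CPM in glucose discs, against 420, 416 and 359 CPM in mannitol discs. In leaves FNR1 had 1070, 994 and 1010 CPM in overexpressor 2 and 1060, 1050 and 1040 CPM in overexpressor 1, against 1540, 1240 and 1460 CPM in wild type. No sugar library of FNR1 overlapped mannitol and no line wild type, but its estimates were smaller than those of FNR2 in discs and the smallest of the carriers in the lines.

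The log2 fold change of FNR1 was -1.23 ± 0.43 (SE, edgeR adjusted p 0.0324) in fructose, -3.57 ± 0.47 (SE, edgeR adjusted p 0.000149) in glucose, -0.46 ± 0.12 (SE, edgeR adjusted p 0.0113) in overexpressor 2 and -0.43 ± 0.12 (SE, edgeR adjusted p 0.0156) in overexpressor 1. The fructose call was lost when any mannitol or fructose library was left out (adjusted p 0.0563 to 0.115). The overexpressor 2 call was lost without wild-type replicate 1 (adjusted p 0.0561), and the overexpressor 1 call without wild-type replicate 1 or 3 or overexpressor 1 replicate 2 or 3 (adjusted p 0.0561 to 0.0726). FNR1 overlaps AT5G66180 on the opposite strand.

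The ATP synthase genes ATPC1, ATPD and ATPG encode the gamma and delta subunits of the catalytic part and a membrane subunit of the stator. All 3 fell in fructose (median log2 fold change -1.16), glucose (-3.22) and overexpressor 2 (-0.87), and 2 of 3 fell in overexpressor 1 (-0.72). ATPC1 had the highest level per kilobase of the 3 averaged over all 18 libraries. In the lines the mean of ATPG was higher, with 713 against 685 CPM per kilobase in overexpressor 2 and 846 against 760 in overexpressor 1. ATPC1 (AT4G04640, chr4:2350498-2352025, minus strand) stood at 383, 264 and 459 CPM in fructose discs and 57.4, 131 and 94.3 CPM in glucose discs, against 852, 887 and 737 CPM in mannitol discs. In leaves ATPC1 had 1110, 998 and 1020 CPM in overexpressor 2 and 1240, 1120 and 1110 CPM in overexpressor 1, against 2080, 1500 and 2140 CPM in wild type. The sugars were separate from mannitol and the lines from wild type, with -1.16 ± 0.29 (SE, edgeR adjusted p 0.0064) in fructose, -3.13 ± 0.31 (SE, edgeR adjusted p 1.52e-05) in glucose, -0.87 ± 0.15 (SE, edgeR adjusted p 0.00159) in overexpressor 2 and -0.72 ± 0.15 (SE, edgeR adjusted p 0.00363) in overexpressor 1.

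ATPD had the smallest fructose estimate of the 3 and the largest in the lines, and ATPG the reverse. ATPD (AT4G09650, chr4:6100714-6101864, plus strand) stood at 248, 164 and 300 CPM in fructose discs and 30.1, 75.1 and 38.8 CPM in glucose discs, against 499, 468 and 371 CPM in mannitol discs. In leaves ATPD had 409, 417 and 421 CPM in overexpressor 2 and 486, 358 and 372 CPM in overexpressor 1, against 1560, 942 and 1620 CPM in wild type. ATPD fell strongly in the lines, with -1.73 ± 0.21 (SE, edgeR adjusted p 0.000326) in overexpressor 2 and -1.76 ± 0.21 (SE, edgeR adjusted p 0.000339) in overexpressor 1, and in fructose had -0.91 ± 0.35 (SE, edgeR adjusted p 0.0443). That fructose call was lost in 6 of the 9 fits with 1 library left out: without any mannitol library, glucose replicate 3, or fructose replicate 1 or 2 (adjusted p 0.053 to 0.136). ATPG (AT4G32260, chr4:15573553-15574737, minus strand) stood at 220, 141 and 218 CPM in fructose discs and 53.2, 77.7 and 62.6 CPM in glucose discs, against 632, 670 and 510 CPM in mannitol discs. In leaves ATPG had 947, 723 and 719 CPM in overexpressor 2 and 988, 906 and 940 CPM in overexpressor 1, against 1320, 975 and 1290 CPM in wild type. In fructose ATPG had -1.65 ± 0.20 (SE, edgeR adjusted p 5.77e-05), and in overexpressor 2 it had -0.59 ± 0.16 (SE, edgeR adjusted p 0.0143). The overexpressor 2 call was lost without wild-type replicate 1 or 3 or overexpressor 2 replicate 2 or 3 (adjusted p 0.0519 to 0.0613).

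For several of the 7 subunits encoded by a pair of genes, the balance of the pair differed between groups without overlap. The share of the first gene was taken from levels per kilobase in each library. FNR1 made up 91.2 to 93.7% of the FNR pair in fructose discs and 88.7 to 94.3% in glucose discs, against 75 to 79.1% in mannitol discs. In leaves FNR1 made up 62.9 to 65.8% in overexpressor 2 and 65 to 67.6% in overexpressor 1, against 59.2 to 60.9% in wild type. FNR1 thus held the larger share in each sugar and each line. PSAD1 also took a larger share of its pair, in which PSAD2 overlaps AT1G03140 on the same strand, with 68.6 to 71.3% in fructose and 72.9 to 85.3% in glucose, against 61.8 to 62.7% in mannitol. In leaves PSAD1 took 69.9 to 73.7% in overexpressor 2 and 71.2 to 72% in overexpressor 1, against 63 to 64% in wild type. For these 2 pairs the ranges of each sugar or line are clear of those of mannitol or wild type, in the same direction in both experiments.

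The PSBQA share was higher in the sugars and lower in the lines. It took 27.1 to 29% of the PSBQ pair in fructose and 23.6 to 29.9% in glucose, against 19.5 to 21.8% in mannitol. In leaves it took 25.9 to 31.5% in overexpressor 2 and 25.1 to 29.9% in overexpressor 1, against 39.2 to 45.4% in wild type. PSAH1, whose pair encodes the subunit beside the light-harvesting complex II docking site, took 32.7 to 37.5% in overexpressor 2 and 35.2 to 40.3% in overexpressor 1, against 25.7 to 26.1% in wild type. In discs PSAH1 was at 31.7 to 33.8% in fructose and 36.8 to 47.1% in glucose, against 35.5 to 36.1% in mannitol. PSAH1 thus had a lower share in fructose and a higher one in glucose. PSAH1 (AT3G16140, chr3:5467987-5469594, minus strand) stood at 211, 136 and 241 CPM in fructose discs and 20.5, 60 and 32.9 CPM in glucose discs, against 646, 665 and 544 CPM in mannitol discs. In leaves PSAH1 had 573, 467 and 459 CPM in overexpressor 2 and 650, 568 and 589 CPM in overexpressor 1, against 1030, 842 and 1090 CPM in wild type. PSAH1 and PSAG had the smallest glucose estimates of the core genes, with -4.03 ± 0.41 (SE, edgeR adjusted p 2.46e-05) for PSAH1. PSAH2 (AT1G52230, chr1:19454798-19455668, plus strand) stood at 224, 149 and 280 CPM in fructose discs and 12.4, 55.6 and 26.3 CPM in glucose discs, against 634, 635 and 521 CPM in mannitol discs. In leaves PSAH2 had 516, 513 and 511 CPM in overexpressor 2 and 647, 464 and 472 CPM in overexpressor 1, against 1610, 1310 and 1670 CPM in wild type. PSAH2 had log2 fold changes of -1.58 ± 0.16 (SE, edgeR adjusted p 0.000167) in overexpressor 2 and -1.54 ± 0.16 (SE, edgeR adjusted p 0.000231) in overexpressor 1, against -0.99 ± 0.14 (SE, edgeR adjusted p 0.000712) and, in overexpressor 1, -0.72 ± 0.14 (SE, edgeR adjusted p 0.00293) for PSAH1.

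PETE1 took 12.5 to 12.8% of the plastocyanin pair in overexpressor 2 and 10.5 to 11.5% in overexpressor 1, against 7.68 to 8.31% in wild type. PETE1 (AT1G76100, chr1:28553883-28554930, minus strand) stood at 78.7, 59.9 and 107 CPM in fructose discs and 5.94, 24 and 9.33 CPM in glucose discs, against 283, 273 and 221 CPM in mannitol discs. In leaves PETE1 had 183, 144 and 143 CPM in overexpressor 2 and 171, 131 and 136 CPM in overexpressor 1, against 348, 228 and 329 CPM in wild type. The plastocyanin pair was the 1 pair of 7 whose shares did not overlap between overexpressor 2 and overexpressor 1. At an exact permutation p of 0.10 per pair, 1 separation in 7 pairs can arise without any difference between the lines. In discs the PETE1 share was 12.4 to 15.4% in fructose and 13.8 to 14.5% in glucose, against 14.9 to 15% in mannitol, so glucose lay below mannitol and fructose overlapped it. PSBO1 took 82.4% in all fructose libraries and 82.3 to 91.7% in glucose, against 79.5 to 80.6% in mannitol. In leaves PSBO1 took 74.5 to 74.6% in overexpressor 2 and 74 to 74.6% in overexpressor 1, against 73.7 to 74.5% in wild type, so any difference was slight. PSAE2 (AT2G20260, chr2:8736734-8737767, plus strand) stood at 177, 123 and 237 CPM in fructose discs and 14.3, 49.7 and 23.1 CPM in glucose discs, against 697, 725 and 619 CPM in mannitol discs. In leaves PSAE2 had 418, 326 and 330 CPM in overexpressor 2 and 470, 392 and 411 CPM in overexpressor 1, against 800, 567 and 839 CPM in wild type. PSAE1 took 47.6 to 48.2% in fructose, against 41.9 to 44.8% in mannitol, and overlapped elsewhere. With 3 libraries against 3 an exact permutation test cannot go below p = 0.10, so these shares were not tested. Raw counts in place of levels per kilobase cannot change these separations, because a fixed exon length keeps the order of libraries within a pair. The longest run of identical exon bases within a pair was 17 to 35 bases.

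**Figure D5:**
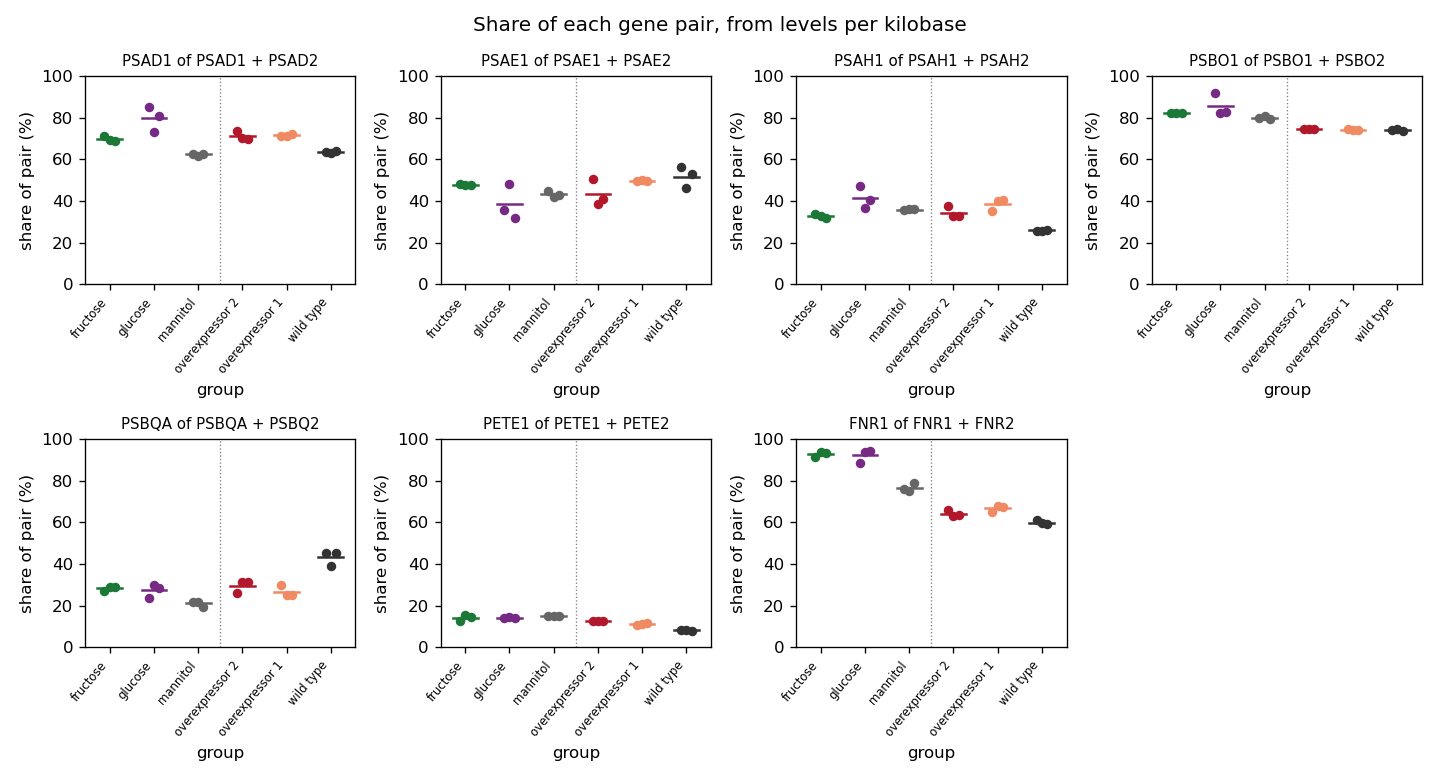
Share of the first gene in each of 7 gene pairs, from levels per kilobase, in every library, with a bar at the group mean and a dotted line between discs and leaves. FNR1 and PSAD1 lie higher in both sugars than in mannitol and in both lines than in wild type, whereas PSBQA lies higher in the sugars and lower in the lines.

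Compared per kilobase of exon, PSBR and LHCA4 were the most abundant members in all 6 groups. In wild-type leaves PSBR had 8670 ± 316 and LHCA4 8630 ± 1510 CPM per kilobase (SD, n = 3), a difference within the spread, and LHCA6 (170 ± 41.5) and LHCA5 (187 ± 23.4) were lowest, also within their spread of each other. In mannitol discs LHCA4 (7680 ± 987) stood above PSBR (5950 ± 544), and LHCA6 was lowest. FNR2 was the second lowest in mannitol, fructose and glucose discs. Members did not keep their order of response between the experiments: across the 39 members, Pearson's r between the log2 fold changes of a sugar and of a line was -0.05 to 0.18, a description over genes that share libraries within each experiment.

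Other nuclear genes of the thylakoid system were followed as 40 listed genes, of which 38 were tested. In fructose 32 fell and 4 rose, and in glucose 34 fell and 3 rose. Of all 18784 genes tested in discs, 6869 were called higher in fructose and 7224 in glucose. In overexpressor 2, 24 fell and 4 rose, and in overexpressor 1, 23 fell and 8 rose. Of all 18703 genes tested in leaves, 3851 were called higher in overexpressor 2 and 4018 in overexpressor 1. The rises in the list exceeded the share over all genes in no comparison. The rising genes in the sugars included FD3, the ferredoxin of non-green tissue, and RFNR1 and RFNR2, which encode root-type FNR. RFNR1 stood at 310, 427 and 266 CPM in fructose and 1130, 815 and 744 CPM in glucose, against 15.5, 16.2 and 20.3 CPM in mannitol, with 4.27 ± 0.24 (SE, edgeR adjusted p 2.73e-07) in fructose and 5.69 ± 0.26 (SE, edgeR adjusted p 4.8e-08) in glucose. RFNR2 had 2.98 ± 0.17 (SE, edgeR adjusted p 2.32e-07) in fructose and 2.39 ± 0.16 (SE, edgeR adjusted p 5.18e-07) in glucose, and FD3 had 3.31 ± 0.23 (SE, edgeR adjusted p 1.2e-06) and, in glucose, 3.94 ± 0.23 (SE, edgeR adjusted p 2.85e-07). The root-type genes thus rose in the discs in which FNR1, FNR2 and FD2 fell. PSB28, a photosystem II assembly factor, rose in fructose with 0.95 ± 0.19 (SE, edgeR adjusted p 0.00131) and had 0.03 ± 0.19 (SE, edgeR adjusted p 0.903) in glucose. Its difference between fructose and glucose was 0.93 ± 0.19 (SE, edgeR adjusted p 0.00386).

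The 14 tested subunits of the NDH complex, which returns electrons from ferredoxin to plastoquinone, all fell in both sugars, with a median of -2.05 in fructose and -4.28 in glucose. In overexpressor 2, 8 of them fell and 1 rose, beside 3851 of all 18703 genes called higher. In overexpressor 1, 8 fell and 4 rose, beside 4018 of 18703 called higher. NDHO, the riser common to the lines, stood at 188, 179 and 175 CPM in overexpressor 2 and 136, 153 and 167 CPM in overexpressor 1, against 112, 115 and 108 CPM in wild type. PGRL1B, which acts in the other route of cyclic electron flow, rose in the lines with 0.95 ± 0.15 (SE, edgeR adjusted p 0.000903) in overexpressor 2 and 1.01 ± 0.14 (SE, edgeR adjusted p 0.000622) in overexpressor 1 and fell in the sugars. All 7 genes listed as photosystem assembly factors, a list without PSB28, fell in both lines, and 7 fell in glucose and 6 in fructose. The lowest p-values among the other genes in overexpressor 2 belonged to PPL1, a PSBP-like protein, with -1.32 ± 0.14 (SE, edgeR adjusted p 0.000227), and CURT1B, which bends thylakoid membranes, with -1.51 ± 0.17 (SE, edgeR adjusted p 0.00025).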

How the data were processed

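Total RNA (NucleoSpin RNA Plant kit, directional libraries, per the labels' protocols) gave 1 deposited table of raw counts per gene for 18 libraries. Per the submitters' processing notes, fastp, HISAT2 2.0.5 and StringTie 1.3.3 were used with build TAIR10; neither source names the counting tool or its strand setting. Depth limits mainly the rarest member, LHCA6.

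Discs and leaves were fitted apart on all genes with edgeR 4.0.16 in R 4.3.3: filterByExpr, TMM scaling, robust quasi-likelihood test, 1 mean per group, 6 residual degrees of freedom, Benjamini-Hochberg adjusted p under 0.05. The SE is the log2 fold change divided by the square root of the F statistic, an approximation. Levels per kilobase use the summed exon length of the TAIR10.1 RefSeq annotation. Replicate numbers in the labels were checked for pairing and gave no clear sign of it. DESeq2 1.42.0, limma-voom (limma 3.58.1) and other scalings, filters, designs and leave-outs were alternatives. The fit was tested on simulated data in which far fewer genes changed than here, so that test does not cover changes this broad. Members and gene lists were chosen with earlier results of these data known. Any member could be named. Values in every library are given for the most abundant member of each complex, by mean level per kilobase over all 18 libraries. They are also given for members with the largest and smallest change in glucose and in the lines, and for gene pairs whose shares separated. PSAF, PSAK, LHCA3 and PETC were named besides. Of other genes, those with the smallest p in fructose and overexpressor 2 and those against their list's direction could be named.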

Additional observations from a re-analysis of the deposited data

How the results depend on the processing

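All 39 members were lower in glucose under each alternative run, and no called difference changed sign. The fructose count was the least stable: 34 members were lower, against 13 at an adjusted p under 0.01. It was 22 with near-identical libraries summed, in discs as in leaves, beside 5236 of all 19083 genes called lower. With 1 library left out it was 15 to 37, beside 5048 to 6144 of all genes (5546 of 18784 in the main fit). In overexpressor 1 the count of 38 became 20 with all 18 libraries in 1 fit, beside 3931 of all 19632 genes called lower. It was 18 with a 2-fold minimum, beside 9.64% of all genes. It was 33 to 39 with 1 library left out, beside 3021 to 4510 of all genes. With near-identical libraries summed 10 calls were lost, and 2625 of all 18948 genes were called lower. In overexpressor 2 the count of 39 became 30 with all 18 libraries in 1 fit, beside 4128 of all 19632 genes, and 28 with a 2-fold minimum. It was 35 with near-identical libraries summed, beside 2670 of all 18948 genes. With 1 library left out it was 36 to 39, beside 2810 to 4333 of all genes. With library size only as scaling, the median log2 fold change was -0.73 in overexpressor 1 and -0.95 in overexpressor 2, beside medians of all genes of 0.22 and 0.28. With 1 library left out, the median of fructose against glucose was 2.32 to 3.60. Between the lines 0 to 1 members were then lower in overexpressor 2, beside 0 to 150 of all genes. Uncalled differences between the lines changed sign. With library size only they were 0.02 (FNR1 and PSAH2) and 0.04 (LHCA6). With 1 library left out the ranges were -0.25 to 0.06 (PETE2), -0.32 to 0.07 (PSBQA), -0.12 to 0.13 (PSAH2), -0.08 to 0.10 (LHCA6), -0.04 to 0.14 (PSB27), -0.03 to 0.23 (PETE1) and -0.04 to 0.19 (ATPD). ATPD was at 0.00 with all 18 libraries in 1 fit and -0.04 with near-identical libraries summed. The causes were not tested. Same-numbered libraries had correlations of -0.457 to 0.108 in discs and -0.093 to 0.184 in leaves. Different-numbered ones had -0.514 to 0.494 in discs and -0.247 to 0.2 in leaves. The numbers thus gave no clear sign of pairing, which 3 libraries per group cannot exclude. With a replicate block 26 members were lower in fructose and 39 in glucose, beside 5237 and 6373 of all 18784 genes. In leaves 39 were lower in overexpressor 2 and 38 in overexpressor 1, beside 3995 and 4207 of all 18703 genes.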
